A study of Homo sapiens with 12 samples.

Results

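Complement components and regulators were followed through 8 genes: C1R, C1S, C3, CFB, SERPING1, CD46, CD55 and CD59. They were found by their symbols among the 60099 genes of the expression table. RNA of the head and neck squamous cell carcinoma (HNSCC) lines Cal27 and HN30 was sequenced after 24 h without IFNα or with 20 or 200 ng/ml IFNα, a type I interferon. The 12 samples formed 6 groups of 2, which are written here by the letters of the sample names. In line set A-C, A was the untreated control, B received 20 ng/ml and C received 200 ng/ml, and D, E and F were the same doses in line set D-F. Which letters belong to which line is not stated in the sources used here, and each set stands for a single line, so a difference between the sets is one between 2 lines and not between kinds of tumour. Nothing in the labels says that the 2 replicates of a group came from separate cultures, so p-values measure only the spread between these samples.

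Complement is a cascade of plasma proteins in which one protease activates the next, until C3 is cleaved and its larger fragment binds to a surface. C1R and C1S are the proteases of the C1 complex of the classical pathway, CFB is the protease subunit of the alternative pathway convertase, and C3 is the protein that both pathways converge on. SERPING1 encodes C1 inhibitor, a secreted serpin that blocks C1R and C1S, whereas CD46, CD55 and CD59 are membrane proteins that protect a cell from complement on its own surface. The liver makes most plasma complement, but epithelial and tumour cells also make several components, and interferons are known to act on some of these genes.

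Positions are given on GRCh38. C1S (chr12:6988259-7071032, plus strand) and C1R (chr12:7080209-7092607, minus strand) lay 9176 bases apart and pointed towards each other. CD55 (chr1:207321508-207386804) and CD46 (chr1:207752057-207795513) lay on the plus strand of chromosome 1, with 365252 bases between them. SERPING1 (chr11:57597387-57614853, plus strand) and CD59 (chr11:33698261-33736445, minus strand) shared chromosome 11 at a distance, C3 was at chr19:6677704-6730562 on the minus strand, and CFB was at chr6:31945650-31952084 on the plus strand. CFB overlapped the end of C2, the classical pathway protease gene just upstream, by 23 bases on the same strand, and C1R shared 3021 bases of its span with C1RL on the same strand, so reads there are divided between neighbours by estimate.

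RefSeq promoter sequences (GRCh38.p14) were found for 5 of the 8 genes, C1R, CFB, CD46, CD55 and CD59. The 250 bases before each start were searched on both strands for the core of the interferon-stimulated response element, TTTCNNTTTC, and for the core of the gamma-activated site, TTCNNNGAA. The first was present in 3.02% of all 35116 promoters searched in the same way and the second in 6.57%. Counted by gene, with a match at any start, the shares were 3.71 and 8.09% of 27305 genes. CFB was the member that held both. C1R held the second core at one of its 2 starts, and neither core was found for CD46 or CD55. CD59 held the second core before its first 2 starts, at the same site for both. The part of these matches in any response was not tested. The 30 bases around each match are printed 5′ to 3′ on the strand of the gene, with the matched core in capitals:
CFB, first core: acttctgcagTTTCTGTTTCcttgactggc
CFB, second core: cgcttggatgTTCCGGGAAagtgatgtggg
C1R, second core: gccagtcctaTTCCTGGAAggggaggggag
CD59, second core: ccacccggccTTCTCAGAAcctgggccagg

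The CFB stretches were chr6:31945945-31945974 and chr6:31945993-31946022, with the cores 140 to 131 and 92 to 84 bases before the RefSeq start. In GENCODE v29 both lie in the 5′ untranslated exon of the longer transcript CFB-271 (chr6:31945709-31946221), so the place counts as promoter for one start and as transcribed for another. The C1R stretch, chr12:7091960-7091989 on the minus strand, lay 86 to 78 bases before the start in an exon of the retained-intron transcript C1R-206. The CD59 stretch was chr11:33736588-33736617 on the minus strand, with its core 128 to 120 bases before the first start. A match of this kind describes letters and is not a measured binding site.

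The 12 libraries held 10517448 to 16056734 estimated counts each. Controls were deeper (12670755 to 16056734) than samples given 200 ng/ml (10517448 to 11854183), and counts were scaled for this before any test. Among the 6 markers of squamous epithelium KRT5 was at 236.5 to 1248 TPM (a level scaled for length and depth) and KRT14 at 0 to 49.2 TPM, and the 6 summed to 1821 to 2342 TPM in A-C and 777.5 to 961.9 TPM in D-F. The 5 hepatocyte markers, of the main source of plasma complement, did not pass 0.262 TPM in any sample, and ALB, APOB and FGB were at 0 throughout. Of the 5 immune markers, CD3E and MS4A1 were at 0 in every sample and PTPRC did not pass 0.0425 TPM. The summed immune markers nevertheless moved with dose, from 9.15 to 12.4 TPM in A to 18.5 to 18.9 TPM in C and from 5.34 to 7.63 TPM in D to 37.1 to 40.6 TPM in F. Most of that sum was CD68 (5.29 to 39.6 TPM), a lysosomal gene that other cells express too. The 3 endothelial markers summed to 15.3 to 21.7 TPM in A-C and 0.1003 to 0.732 TPM in D-F, nearly all of it CDH5 in A-C, and PECAM1 and VWF did not pass 0.576 TPM. The 4 fibroblast markers, of which COL1A1 was the highest at 3.43 to 13.0 TPM, summed to 8.48 to 15.2 TPM in A and 5.41 to 6.04 TPM in C, and to 8.97 to 9.65 TPM in D and 14.2 to 15.2 TPM in F. The part of these markers in the results was not tested.

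Among untreated cells the order of the 8 levels differed between the line sets. In line set A-C it ran C3, CD59, CFB, CD46, C1S, CD55, C1R and SERPING1, and only CD55 and C1R overlapped as neighbours in that order. In line set D-F it ran C3, CD59, CD46, CD55, C1R, CFB, C1S and SERPING1, and the pairs whose ranges overlapped were CD59 with CD46 and C1R with CFB. C3, the most abundant of the 8 in both sets, ranked 274th of 60099 genes by mean TPM in A and 438th in D. SERPING1 ranked 21560th and 24629th. At 200 ng/ml C3 was again first and SERPING1 last in both sets, and CFB stood above C1R and CD55 in D-F, where it had stood below both without IFNα.

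**Figure D1:**
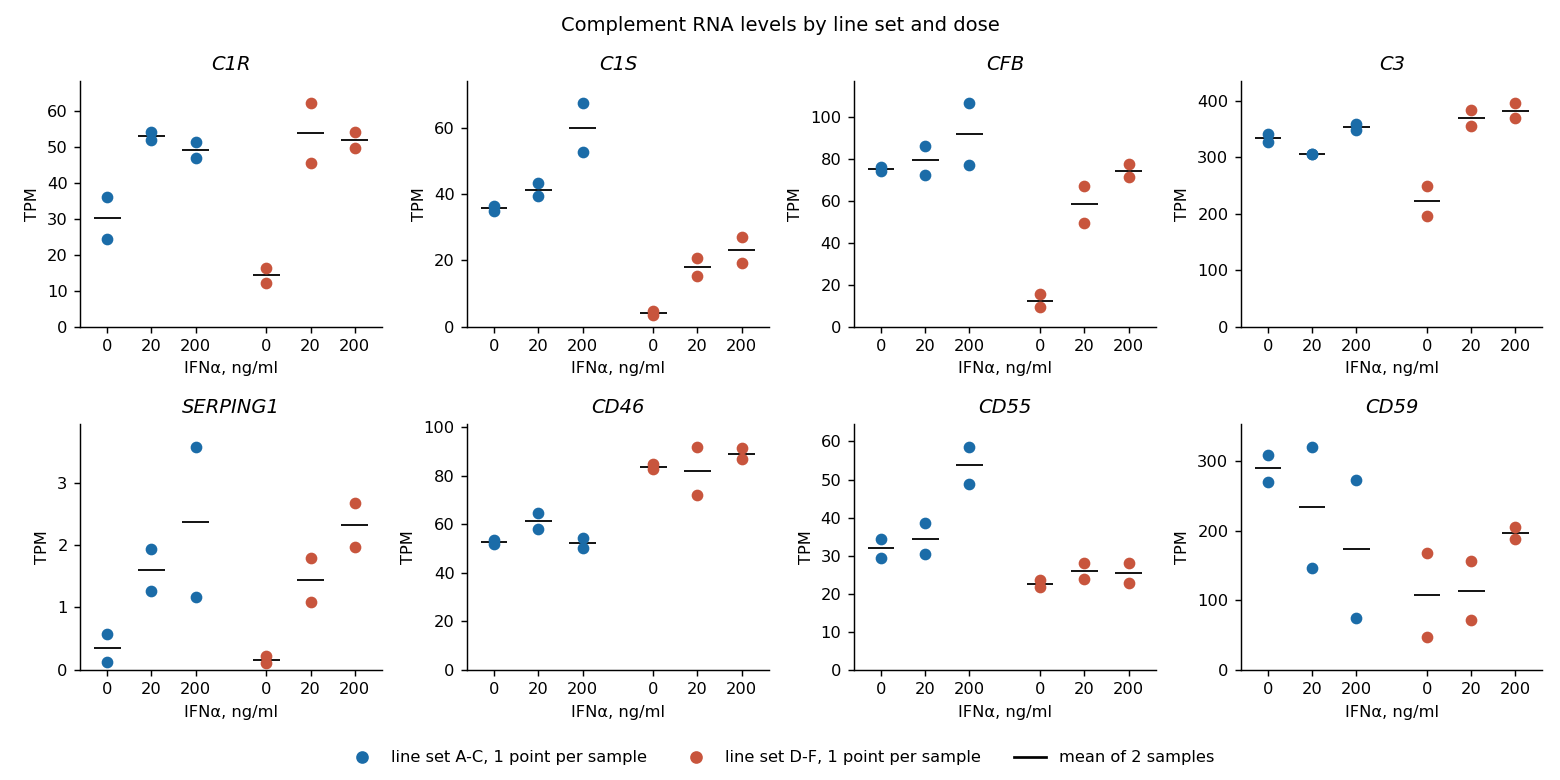
Level of each of the 8 genes in TPM (vertical axes, starting at 0) at 0, 20 and 200 ng/ml IFNα (horizontal axes), with 1 point per sample, blue for line set A-C and red for D-F, and a bar at the mean of 2 samples. C1R, C1S, CFB and C3 are lowest in the untreated D samples, and CD59 replicates lie far apart in 4 of the 6 groups.

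The classical pathway proteases were lower in untreated D than in untreated A and higher with IFNα. The C1S level was 36.5 and 34.8 TPM in A, 39.5 and 43.3 TPM in B, and 52.7 and 67.4 TPM in C. In the other set it was 4.62 and 3.62 TPM in D, 20.7 and 15.2 TPM in E, and 27.0 and 19.1 TPM in F. Every treated sample lay above the controls of its own set, the doses did not overlap in A-C, and the ranges of E and F overlapped. Over both sets C1S rose 3.75-fold at 200 ng/ml (log2 difference 1.91, SE 0.19, adjusted p = 0.000263) and 2.65-fold at 20 ng/ml (1.40, SE 0.19, adjusted p = 0.00284), by edgeR's quasi-likelihood test with Benjamini-Hochberg adjustment over 19944 genes. A gene was called where it changed at least 2-fold with an adjusted p of at most 0.05, and both doses were compared with the same control samples. In bulk RNA, a change in the number of cells that express a gene and a change in RNA per cell cannot be told apart.

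C1R, which cleaves and activates C1S, was at 24.3 and 36.1 TPM in A, 54.3 and 51.9 TPM in B, and 51.2 and 46.9 TPM in C. Its level was 16.2 and 12.2 TPM in D, 62.1 and 45.5 TPM in E, and 49.7 and 54.2 TPM in F. The treated samples of both sets thus came to the same range, 45.5 to 62.1 TPM, from controls that differed. C1R rose 2.40-fold at 200 ng/ml (log2 difference 1.26, SE 0.17, adjusted p = 0.00147) and 2.31-fold at 20 ng/ml (1.21, SE 0.17, adjusted p = 0.00284, edgeR). The ratio of C1R to C1S in TPM was 0.666 to 1.37 in line set A-C and 1.84 to 3.52 in D-F, without overlap, so C1R exceeded C1S in each D-F sample. In D it was 3.52 and 3.37, and it was lower in F, at 1.84 and 2.84.

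CFB, the protease of the alternative pathway, was at 74.0 and 76.0 TPM in A, 86.3 and 72.4 TPM in B, and 106.4 and 77.1 TPM in C. Untreated D held 15.3 and 9.11 TPM, E held 67.2 and 49.3 TPM, and F held 71.2 and 77.4 TPM. In A-C the samples at 20 ng/ml overlapped the controls and 1 sample at 200 ng/ml lay barely above them, whereas in D-F all 4 treated samples lay far above both controls. Over both sets CFB rose 2.76-fold at 200 ng/ml (log2 difference 1.47, SE 0.14, adjusted p = 0.000152) and 2.29-fold at 20 ng/ml (1.19, SE 0.14, adjusted p = 0.000893, edgeR). That average stands for unequal responses, which are compared below.

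C3 was at 341.7 and 326.5 TPM in A, 306.1 and 306.3 TPM in B, and 359.3 and 349.1 TPM in C. It was at 248.8 and 195.4 TPM in D, 355.6 and 384.2 TPM in E, and 395.9 and 370.1 TPM in F. Levels in A-C stayed within a narrow band, with B below and C above the controls, and levels in D-F rose to that band or above it. C3 was higher by a log2 difference of 0.40 (SE 0.07, adjusted p = 0.00493) at 200 ng/ml and 0.31 (SE 0.07, adjusted p = 0.0295) at 20 ng/ml by edgeR, under 2-fold and therefore not called. The CFB to C3 ratio in TPM was 0.217 to 0.296 throughout A-C. It was 0.0616 and 0.0466 in D, 0.189 and 0.128 in E, and 0.180 and 0.209 in F.

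SERPING1, the C1 inhibitor gene, was the least abundant of the 8 in each group. Its counts were 2 and 10 in A, 31 and 19 in B, and 53 and 17 in C, which gave levels of 0.129 and 0.575, 1.93 and 1.27, and 3.58 and 1.16 TPM. In D-F the counts were 2 and 5 in D, 24 and 14 in E, and 27 and 35 in F, with levels of 0.103 and 0.223, 1.79 and 1.09, and 1.98 and 2.67 TPM. No treated sample overlapped a control, but none of the 4 controls reached the 0.809 CPM (counts scaled to library size) of the low-count filter, which SERPING1 passed through its 8 treated samples alone, so it could be tested only because it differed. The fitted rise was 9.05-fold at 200 ng/ml (log2 difference 3.18, SE 0.53, adjusted p = 0.00575) and 5.47-fold at 20 ng/ml (2.45, SE 0.54, adjusted p = 0.0374, edgeR). The size was uncertain at these counts: the log2 difference at 200 ng/ml was 2.72 to 3.84 with 1 sample left out, highest without A2, and 1.37 by limma on log2(TPM + 1), where the call held. The call at 20 ng/ml held in 3 of 12 fits that left out 1 sample, those without A2, C1 or C2, and without any other sample the adjusted p was 0.0552 to 0.135. It held in 2 of 8 other alternatives, and the log2 difference was 3.11 without A2 and 1.00 by limma on log2(TPM + 1). Even at 200 ng/ml the levels of C1R and C1S were 14.3 to 58.0 times that of SERPING1 in A-C and 7.14 to 25.1 times in D-F.

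Of the 3 membrane regulators none was called at either dose. CD46, a cofactor for the cleavage of C3b and C4b, was at 53.6 and 51.8 TPM in A, 64.7 and 58.0 TPM in B, and 50.3 and 54.4 TPM in C. In D-F its level was 84.8 and 82.8 TPM in D, 92.1 and 72.3 TPM in E, and 86.9 and 91.5 TPM in F. All D-F samples lay above all A-C samples, and within a set controls and the 200 ng/ml samples were close. The log2 difference was -0.08 (SE 0.07, adjusted p = 0.506) at 200 ng/ml and -0.01 (SE 0.07, adjusted p = 1) at 20 ng/ml by edgeR, and its sign turned with the values tested.

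CD55, which speeds the decay of the convertases, was at 29.3 and 34.5 TPM in A, 30.3 and 38.6 TPM in B, and 48.9 and 58.7 TPM in C. It stood at 23.6 and 21.7 TPM in D, 28.03 and 23.8 TPM in E, and 28.1 and 22.8 TPM in F. The C samples were the highest of the 12, B overlapped A, and F overlapped D. Within A-C the log2 difference of CD55 at 200 ng/ml was 0.77 (SE 0.16, adjusted p = 0.0257, edgeR), a 1.70-fold difference that did not reach the 2-fold limit, and within D-F it was 0.14 (SE 0.17, adjusted p = 0.744). The difference between these responses was -0.63 (SE 0.23, adjusted p = 0.2).

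CD59, which blocks the membrane attack complex, had replicates that did not agree. Its level was 308.8 and 271.0 TPM in A, 147.1 and 321.3 TPM in B, and 273.4 and 74.0 TPM in C, and it was 47.0 and 168.6 TPM in D, 155.9 and 71.0 TPM in E, and 188.2 and 205.3 TPM in F. Groups overlapped, and the fitted log2 difference at 200 ng/ml was 0.02 with an SE of 0.46 (adjusted p = 1, edgeR). The spread lay in a pair of transcripts, CD59-203 and CD59-208, which summed to between 14.2 TPM in D1 and 292.7 TPM in B2. All other CD59 transcripts together were at 28.7 to 43.8 TPM in the 12 samples. Without that pair the log2 difference of CD59 was 0.00 (SE 0.16) at 200 ng/ml and 0.21 (SE 0.16, adjusted p = 0.568) at 20 ng/ml, a comparison chosen after the values were seen. Whether the pair varied in the cells or in the division of reads between transcripts was not tested.

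**Figure D2:**
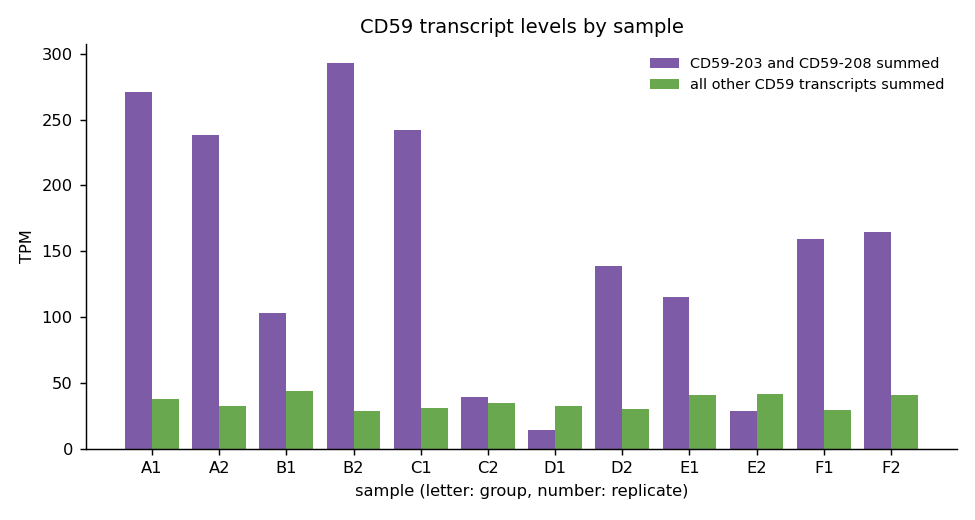
Summed TPM of the transcripts CD59-203 and CD59-208 (purple bars) and of all other CD59 transcripts (green bars) in each of the 12 samples, on an axis that starts at 0. The purple bars range from 14.2 to 292.7 TPM and differ by more than 2-fold within 4 of the 6 pairs of replicates, while the green bars stay between 28.7 and 43.8 TPM.

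Of the 8 genes, 4 were called higher at 200 ng/ml (C1R, C1S, CFB and, through its treated samples alone, SERPING1), where 1.58% of the 19944 genes tested were called higher. The same 4 were called higher at 20 ng/ml, where 0.963% of genes were. SERPING1 could be tested only because it differed, so its calls are no support for these counts. Without it they rest on C1R, C1S and CFB. No member was called lower at either dose. Between 200 and 20 ng/ml none of the 8 was called by edgeR (0.0451% of genes were called in either direction), and no member passed both the 2-fold limit and an unadjusted p of 0.05. C1S had the smallest p of these comparisons, with a log2 difference of 0.50 (SE 0.18, unadjusted p = 0.0198, adjusted p = 0.435). For C1R the difference between doses was 0.05 (SE 0.16, adjusted p = 0.981), and for CFB it was 0.27 (SE 0.13, adjusted p = 0.561).

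Within line set A-C, C1S and, through its treated samples alone, SERPING1 were called higher at 200 ng/ml, 2 of the 8 beside 1.41% of genes. None was called at 20 ng/ml, beside 0.632%. The SERPING1 call is no support for the count at 200 ng/ml, which otherwise rests on C1S. C1S rose 2.08-fold at 200 ng/ml (log2 difference 1.06, SE 0.25, adjusted p = 0.0366) and SERPING1 7.66-fold (2.94, SE 0.73, adjusted p = 0.0421, edgeR). Both calls were narrow. C1S lost its call in 9 of 12 fits that left out 1 sample, all but those without C1, D1 or D2, with log2 differences from 0.82 without C2 to 1.06. SERPING1 lost its call in all of these fits but the one without C2, and its log2 difference was 2.02 without C1, 2.32 without A1 and 4.26 without A2. By limma on log2(TPM + 1) it was 1.24 and not called. At 20 ng/ml SERPING1 had an unadjusted p of 0.015 and an adjusted p of 0.243, and C1R had a log2 difference of 0.70 (SE 0.23, adjusted p = 0.23).

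Within line set D-F, C1S, CFB, C1R and, through its treated samples alone, SERPING1 were called higher at 200 ng/ml, 4 of the 8 beside 1.67% of genes. At 20 ng/ml 3 were called higher, beside 1.20%. Here too the SERPING1 call is no support for the count at 200 ng/ml. C1S rose 6.75-fold at 200 ng/ml (log2 difference 2.76, SE 0.29, adjusted p = 0.000462), CFB 5.67-fold (2.50, SE 0.20, adjusted p = 6.78e-05) and C1R 3.70-fold (1.89, SE 0.24, adjusted p = 0.00149, edgeR). Without D1 the C1S difference was 3.40 at 200 ng/ml and 3.06 at 20 ng/ml, and with coding transcripts only it was 3.50 at 200 ng/ml, all of them called. SERPING1 rose 10.7-fold (3.42, SE 0.78, adjusted p = 0.034, edgeR), a call that was lost without D1, D2, F1 or F2. The call was also lost with the replicate number as a block (edgeR, adjusted p = 0.0728), with limma on either pseudocount and with coding transcripts only. It held in 4 of 8 other alternatives. The SERPING1 log2 difference was 4.16 without D2 and 1.51, not called, by limma on log2(TPM + 1). At 20 ng/ml C1S rose 5.28-fold, CFB 4.51-fold and C1R 3.29-fold, with adjusted p of 0.0015, 0.000231 and 0.00349 by edgeR. C3 was 1.61-fold higher at 200 ng/ml (adjusted p = 0.00224) and 1.59-fold higher at 20 ng/ml (adjusted p = 0.00373), under the 2-fold limit at both doses.

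**Figure D3:**
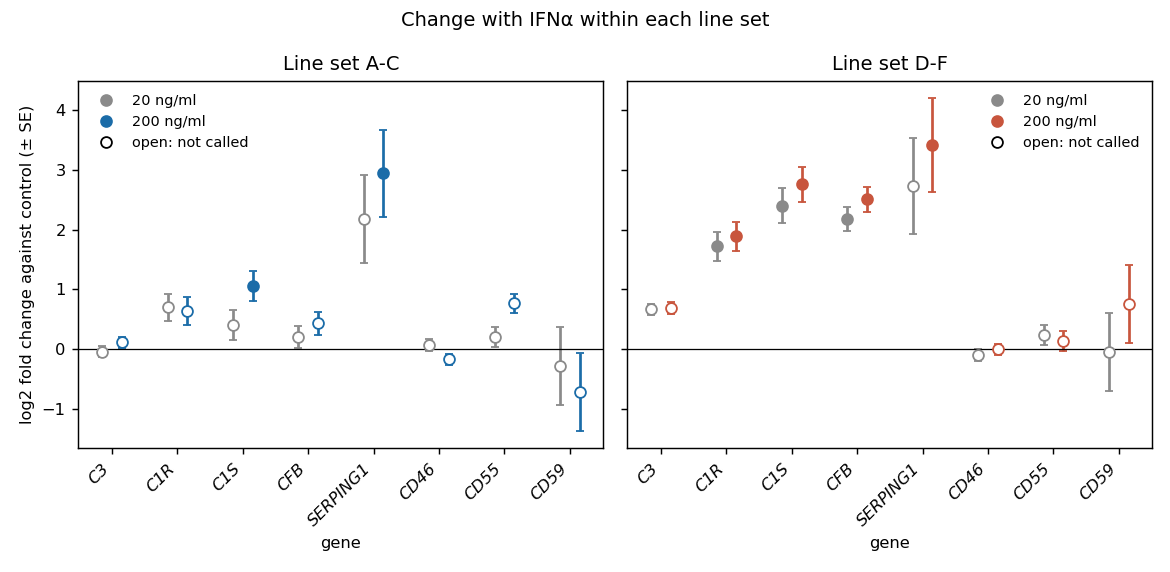
Log2 fold change against the control of the same line set (vertical axis, with bars of 1 SE from the edgeR fit) for the 8 genes at 20 ng/ml (grey) and 200 ng/ml (blue or red), in A-C on the left and D-F on the right, with filled points for called genes. C1R, C1S and CFB lie between 1.72 and 2.76 in D-F and between 0.21 and 1.06 in A-C, and CD46 lies near 0 in both.

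The difference between the 2 responses was tested directly. CFB was the only member called at 200 ng/ml, where 0.998% of genes were called in either direction, and its response was larger in D-F by a log2 difference of 2.07 (SE 0.27, adjusted p = 0.00867, edgeR), which is 4.20-fold. It was also the only one at 20 ng/ml, where 0.231% of genes were called, with a difference of 1.96 (SE 0.27, adjusted p = 0.0203). The 200 ng/ml call held in each alternative fit that was run, with adjusted p up to 0.04. The 20 ng/ml call was lost without A1, A2, B1, B2 or E1 (adjusted p 0.0532 to 0.0876). It was lost as well with the compared groups only, with limma on either pseudocount and with coding transcripts only, so that it held in 4 of 8 other alternatives (adjusted p up to 0.0905). Responses of C1S (1.70, SE 0.38, adjusted p = 0.0588), C1R (1.25, SE 0.33, adjusted p = 0.0927) and C3 (0.57, SE 0.13, adjusted p = 0.0642) were also larger in D-F at 200 ng/ml, without passing the threshold. Without D1 the C1S difference was 2.35 with an adjusted p of 0.0188. For SERPING1 the difference was 0.48 with an SE of 1.07 (adjusted p = 0.887), too wide an error to tell whether the sets differed.

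In untreated cells 3 of the 8 were called lower in D than in A, where 11.0% of genes were called lower, and none higher, where 15.7% were. C1S was 11.7-fold lower in D (log2 difference -3.55, SE 0.29, adjusted p = 1.11e-05), CFB 6.64-fold lower (-2.73, SE 0.20, adjusted p = 5.64e-06) and C1R 2.64-fold lower (-1.40, SE 0.24, adjusted p = 0.000968, edgeR). C1R fell by 0.95 on the log2 scale without A2, under the 2-fold limit, and the C1S difference was -4.22 without D1, -4.19 with coding transcripts only and -2.85 by limma on log2(TPM + 1). C3 (-0.64), CD55 (-0.63) and CD46 (0.42) differed by less than 2-fold with adjusted p of 0.000376, 0.0108 and 0.00548. The direction for CD46 turned with coding transcripts only (-0.0215, adjusted p = 0.944), which made up 61.9 and 66.6% of its level in A and 40.7 and 42.1% in D. For CD59 the difference was -1.44 (SE 0.66, adjusted p = 0.104), and without D2 it was -2.61 with an adjusted p of 0.0278. For SERPING1 it was -0.85 (SE 0.90, adjusted p = 0.479). These comparisons share the D and A samples with the responses above, so a high or low control moves both.

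The components summed to like levels in treated cells of both sets. C3, at 195.4 to 395.9 TPM, was the largest part of the sum in every sample. C1S by itself did not come to a like level, at 39.5 to 67.4 TPM in B and C and 15.2 to 27.0 TPM in E and F. The summed level of C1R, C1S, C3 and CFB was 473.4 to 476.5 TPM in A, 473.8 to 486.0 TPM in B and 540.5 to 569.6 TPM in C. It was 220.3 to 285.0 TPM in D, 494.1 to 505.7 TPM in E and 520.9 to 543.8 TPM in F. Untreated D therefore stood apart from the other 5 groups. CD46 and CD55 together were at 82.9 to 99.2 TPM in 5 of the 6 A-C samples and 113.0 TPM in C2, and at 96.1 to 120.1 TPM in D-F. The components were 2.11 and 2.63 times CD46 and CD55 in the D samples and 4.21 to 5.75 times in the other 10. With CD59, the regulator whose replicates did not agree, added to the divisor, the D samples were at 1.83 and 0.807 times and the other 10 at 1.13 to 2.96 times, which overlapped.

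**Figure D4:**
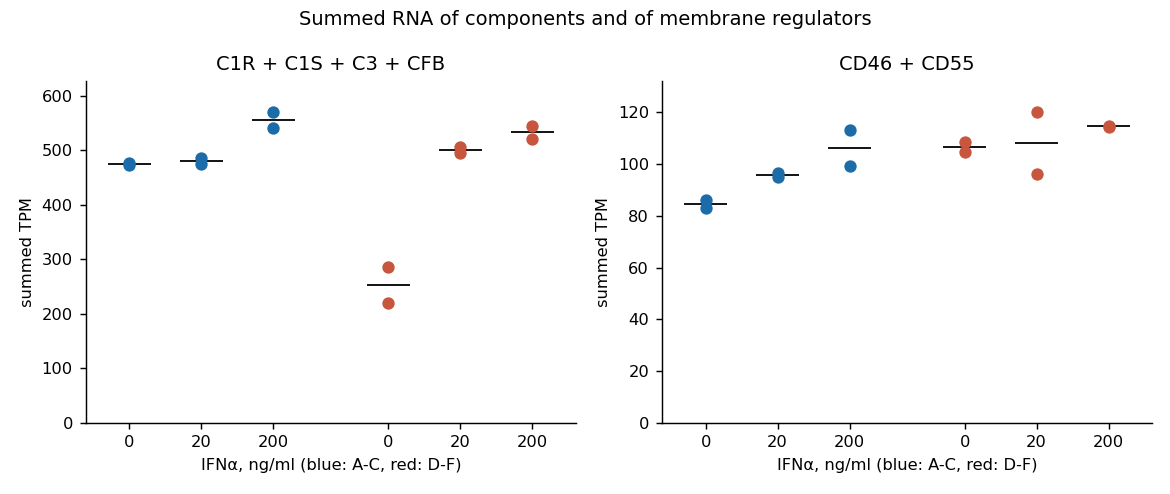
Summed TPM of C1R, C1S, C3 and CFB (left) and of CD46 and CD55 (right) at each IFNα dose, with 1 point per sample, a bar at the mean of 2, blue for A-C and red for D-F, and axes that start at 0. The component sum is 220.3 to 285.0 TPM in untreated D and 473.4 to 569.6 TPM in all other samples.

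Transcript values showed what the gene levels were made of, as estimates that can move between transcripts with shared exons. C3-201, the full-length coding transcript, made up 65.8% of the mean C3 level. The coding CFB-271 made up 35.7% of CFB, and 8 retained-intron transcripts made up 54.1 and 60.2% of it in A, 53.2 and 63.7% in D and 54.8 and 58.6% in F. That share in D and F overlapped, so the rise of CFB was shared by coding and retained-intron transcripts. SERPING1-201, a coding transcript, made up 74.1% of SERPING1. C1R was divided between the coding C1R-209 (32.5%) and C1R-201 (28.4%), and C1R-201 was at 0 TPM in 6 samples and up to 44.1 TPM in E1, so the choice between them differed within pairs of replicates.

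Genes with the most similar pattern to the 4 called members were found by Pearson correlation of log2 CPM over the 12 samples, after each line set was centred on its mean, among 12360 genes. The points share libraries and doses, so the values only describe likeness. Among the 3 nearest to C1S were APOBEC3B (r = 0.974) and IFITM2 (0.972), an interferon-inducible deaminase and an interferon-inducible membrane protein. CFB was nearest to CTSS (0.986), a lysosomal protease, IFITM2 (0.985) and TNFAIP3 (0.983), an inhibitor of NF-κB signalling. Among the 3 nearest to C1R were TRIM26 (0.978) and HIST3H2BB (0.972), and SERPING1 was nearest to ETV7 (0.945), SNX18P14 (0.943) and SCARB2 (0.942).

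A wider list of 57 complement genes, with the 8 among them, placed the members in their pathway. Of these, 33 stayed under 1 TPM in every sample, among them CR2 and CFP (up to 0.531 and 0.569 TPM). Both of these were nevertheless among the 24 genes that passed the low-count filter. None of the 9 recognition genes passed it. The C1Q chains C1QA and C1QC, MBL2 and the ficolins FCN1, FCN2 and FCN3 were at 0 throughout, and the highest value of the class was 0.711 TPM for COLEC11. None of the 6 terminal genes passed it either, with C8G up to 1.33 TPM and C6, C8A and C8B at 0. RNA of the C1 proteases and of C3 was thus measured in cells in which RNA for C1q and for most of the 6 terminal genes was at or near 0 at this depth. C5, listed with C3 and C4 and not among the terminal genes, was at 0.483 to 4.61 TPM.

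With IFNα, 5 of the 24 tested genes of the wider list were called higher at 200 ng/ml and none lower, beside 1.58% of all genes tested called higher. The 4 called members were among them, SERPING1 through its treated samples alone, and at 20 ng/ml these 4 alone were called, beside 0.963%. The SERPING1 calls are no support for these counts. C2, the neighbour of CFB, was at 4.68 and 4.19 TPM in A and 2.42 and 2.00 TPM in C, and at 0.914 and 0.0677 TPM in D and 0.466 and 1.43 TPM in F. Its log2 difference at 200 ng/ml over both sets was 0.93 (SE 0.48, adjusted p = 0.278, edgeR), so it was not called. This averaged opposite signs, -0.46 (SE 0.55, adjusted p = 0.69) in A-C and 2.32 (SE 0.77, adjusted p = 0.131) in D-F, and neither was called. The D-F value rested on 6 and 1 counts in D and 6 and 23 in F, and F1 lay below D1 in TPM. The median log2 difference of the 24 was 0.39 at 200 ng/ml, where that of all genes was -0.01, and 0.07 at 20 ng/ml.

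Between untreated lines, 13 of the 24 were called lower in D than in A and 2 higher, beside 11.0 and 15.7% of all genes tested. The lower ones, beside C1R, C1S and CFB, included CLU (log2 difference -5.09, SE 0.59, adjusted p = 9.16e-05), a chaperone that blocks membrane attack, and C2 (-4.19, SE 0.72, adjusted p = 0.00102). C2 had 6 and 1 counts in D, so the size of its difference is uncertain. Lower too was CFI (-2.85, SE 0.47, adjusted p = 0.00087), the protease that inactivates C3b. CLU and CFI had means of 22.5 and 3.10 TPM in A and 0.817 and 0.572 TPM in D. The sizes of their differences are thus uncertain too. C4B (-1.71) and C4A (-1.23) were called lower by the count test, but they are near-identical copies whose reads can be divided wrongly, and the mean C4A level went the other way, 1.75 TPM in A and 1.97 TPM in D. SUSD4 and ITGAM were called lower too, at means of 2.48 and 0.582 TPM in A and 0.176 and 0.0233 TPM in D, so close to 0 in D that no fold is given. CR2 and ITGAX were listed at 0 TPM in both D samples, against means of 0.357 and 0.689 TPM in A, and no fold is given for them. At 0 in D, they could pass the low-count filter only through other samples, so their calls are no support for the count of 13. The calls of SUSD4 and ITGAM, near 0 in D, may carry the same limit. The 2 higher genes were C5 (2.24, SE 0.26, adjusted p = 0.0001) and CFD (2.52, SE 0.66, adjusted p = 0.0112), factor D, the protease that cleaves CFB. With CR2, ITGAX, SUSD4 and ITGAM included, the median log2 difference of the 24 was -1.42, beside 0.01 for all genes tested.

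**Figure D5:**
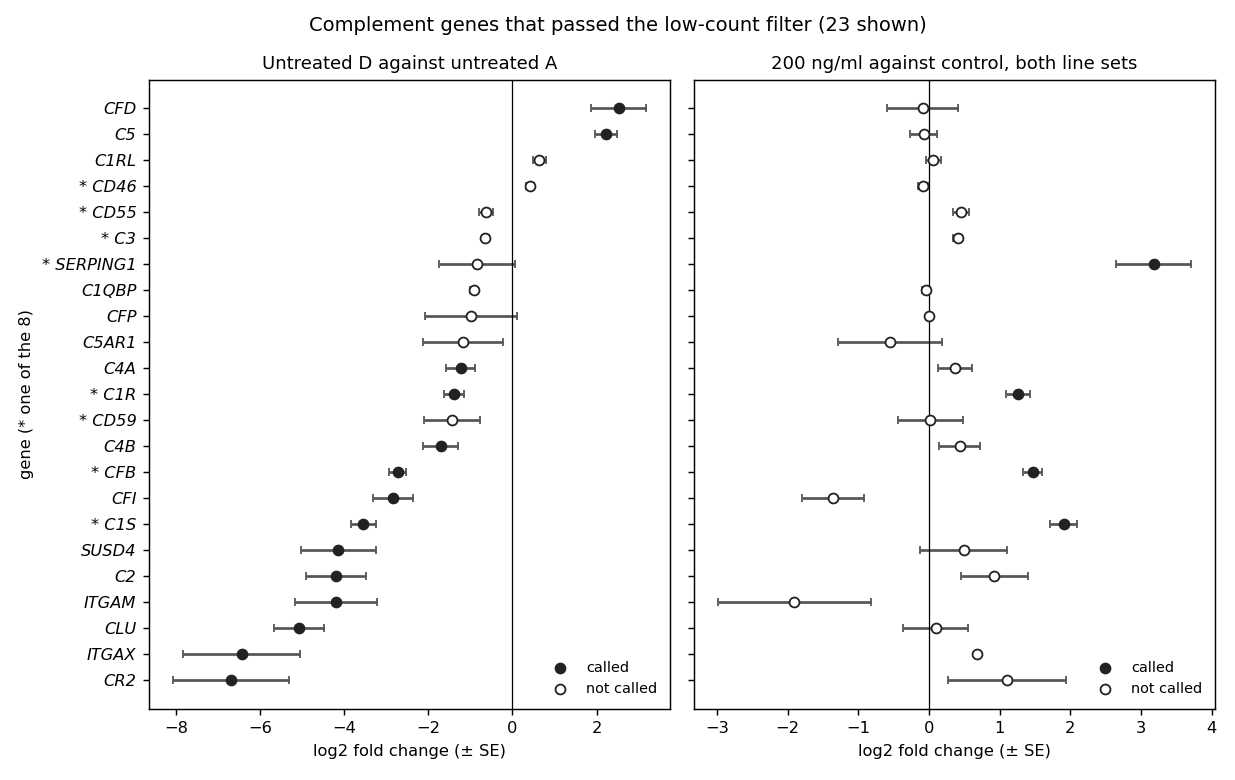
Log2 difference with bars of 1 SE (edgeR) of 23 complement genes that passed the low-count filter, for untreated D against untreated A on the left and 200 ng/ml against control over both line sets on the right, with filled points for called genes and stars at the 8 members. Points for CR2 and ITGAX on the left rest on 0 counts in D and do not measure a size, and those for SUSD4 and ITGAM rest on levels near 0 in D. The other left points run from CLU at -5.09 to CFD at 2.52, and the sizes for CLU, CFI and C2 are uncertain at their low levels in D. No SE could be drawn for ITGAX and CFP on the right.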

How the data were processed

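The paper's methods and the labels describe rRNA-depleted, strand-specific total RNA libraries read on the HiseqXTen platform, and the submitters' processing notes name Trimmomatic 0.36, HISAT2 2.1.0, StringTie 1.3.3b and GRCh38.p10. The authors deposited estimated counts per gene and transcript as whole numbers not scaled for depth, and TPM scaled by the authors for length and depth. For all 60099 genes the gene count was the total over its transcripts. Deposited FPKM values were not used, and 0 columns belonged to samples outside the series. Samples were grouped by the titles and the stated design.

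TPM served for levels. Gene counts, rounded as deposited, were tested with edgeR 4.0.16 (R 4.3.3): filterByExpr, TMM scaling and the quasi-likelihood test in a single fit of 12 samples and 6 groups, whose contrasts gave each comparison, with Benjamini-Hochberg adjustment over 19944 genes. The SE was taken from the log2 difference and its F statistic. The 2-fold and 0.05 limits are those of the paper's methods, which used t-tests and name no adjustment of p. Here 0.05 was set on the adjusted p, and a count model replaced their test since groups held 2 samples. Alternatives used DESeq2 1.42.0, limma 3.58.1 on log2(TPM + 0.1) or log2(TPM + 1), no low-count filter, a replicate block, fewer samples and other call rules. The scripts were tested on simulated data. Replicates of a group differed by more than sampling noise (chi-square 14.3 to 19.7 times its degrees of freedom). Samples with the same number did not deviate together (correlations -0.045 to 0.056). No large effect shared by number was seen, but this cannot show whether samples were handled in pairs. Counts of 3 correspond to 0.187 to 0.285 CPM, and such floors cover counting error only.

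All 8 members were named, with wider-list genes called at either dose or between D and A, C2 as the neighbour of CFB, and the 3 genes most like each called member. Some genes that this rule names are not reported here. Genes of the wider list at 0 were named after their values were seen. Members, lists and tests were chosen with earlier results of these data known.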

Additional observations from a re-analysis of the deposited data

Results flagged for a closer look

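The response of CFB differed between the line sets by a test of that difference itself. At 200 ng/ml the CFB response was larger in D-F than in A-C by a log2 difference of 2.07, and at 20 ng/ml by 1.96, and both doses were compared with the same controls. The call at 20 ng/ml held in 7 of 12 fits that left out 1 sample and in 4 of 8 other alternatives. The CFB level in the controls was 9.11 to 15.3 TPM in D and 74.0 to 76.0 TPM in A, and it reached 71.2 to 77.4 TPM in F and 77.1 to 106.4 TPM in C. Samples far from the others were looked for in 24 groups of 4 (8 genes at 3 doses), and none was found. Each of these groups mixed both line sets. Where the sets lay apart, this search could hardly find a sample far from its own replicate. It also passed over the CD59 replicates of C, at 273.4 and 74.0 TPM.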

How the results depend on the processing

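The counts of members called at 200 and 20 ng/ml over both line sets (4 and 4) stayed within 1.5 times under each alternative run. That limit takes a fall from 4 to 3 as unchanged. With the replicate block they were 4 and 3, SERPING1 being lost at 20 ng/ml. The SERPING1 call at 20 ng/ml held in only 2 of 8 alternatives other than leaving out 1 sample, so that count mostly fell to 3. The block also took the A-C count at 200 ng/ml from 2 to 1. That count was 0 with the compared groups only, with limma on either pseudocount and with protein-coding transcripts only, and 0 to 1 with a sample left out. At 20 ng/ml in A-C it was 0 to 1 with a sample left out and 1 by unadjusted p. Members whose response differed between sets at 200 ng/ml (1) numbered 3 by DESeq2 and by unadjusted p, 2 without the filter and 1 to 2 with a sample left out. At 20 ng/ml (1) they numbered 2 by DESeq2 and without the filter, 3 by unadjusted p, 0 with the compared groups only, limma or coding transcripts only, and 0 to 2 with a sample left out. By adjusted p alone 6 members differed between D and A. DESeq2 gave SERPING1 no adjusted p at either dose. All genes called at 200 ng/ml (426) were 281 by limma on log2(TPM + 1), 282 with coding transcripts only, 1905 by adjusted p alone and 846 by unadjusted p. At 20 ng/ml (229) they were 150, 784 and 649 under the last 3. Between D and A (5310) they were 3047 with coding transcripts and 9261 by adjusted p alone. Signs turned for members near 0. CD46 at 200 ng/ml was 0.0388 by limma on log2(TPM + 0.1), 0.0385 on log2(TPM + 1) and 0.10 with coding transcripts only, and at 20 ng/ml 0.0891, 0.0877 and 0.17, and -0.0611 to 0.0426 with a sample left out. Between D and A it was -0.0215 with coding transcripts. CD59 ranged from -0.53 to 0.60 at 200 ng/ml and -0.51 to 0.42 at 20 ng/ml with a sample left out, and was 0.21 at 20 ng/ml without CD59-203 and CD59-208. SERPING1 between D and A ranged from -1.59 to 0.48 with a sample left out, positive only without A2. Coding-only counts and the CD59 split were chosen after seeing the data, as were the alternatives within a line set. The causes were not tested. SERPING1, at 2 to 10 counts in controls, is the member with the fewest counts.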
